A study of Homo sapiens with 8 samples.

Results

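Binding of the glucocorticoid receptor (GR) was compared with binding of the progesterone receptor (PR) in the same cells under the same ligand, the synthetic progestin R5020, to ask which PR sites also gave a GR peak and how that depended on the rank of the PR site. GR and PR are steroid receptors of 1 family. Each is activated by its own class of hormone, moves onto chromatin as a dimer and recognises nearly the same DNA element, an inverted repeat that is shared by the glucocorticoid, progesterone, androgen and mineralocorticoid receptors. In breast epithelium PR drives growth and lobular development, whereas GR is known for its anti-inflammatory and metabolic programme, so the sites at which both are found are of interest for progestin action in breast cancer cells.

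T47D, a long-established line from a human breast cancer, has high levels of PR, and A1-2 is a T47D derivative into which GR was stably introduced, so that GR and PR are present together. MTVL WT is the T47D line that served as the control. All cells were kept in charcoal-stripped serum and then without serum before hormone. The groups used were GR in A1-2 cells after 60 min of 10 nM R5020, PR in A1-2 cells after the same treatment, GR in A1-2 cells after 60 min of 10 nM dexamethasone (Dex, a synthetic glucocorticoid), PR in MTVL cells after 60 min of 10 nM R5020, GR and PR in untreated A1-2 cells, PR in untreated MTVL cells, and input DNA of A1-2 cells. GR was precipitated with a mix of 2 antibodies and PR with another antibody. Each condition had 1 library, so differences have no replicate check and no p is given. Intervals are 95% intervals over peaks, for counting error alone. How deeply each library was sequenced is unknown, and the length of a peak list moves with it.

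The members were all peaks of both lists on chromosomes 1 to 22 and X that did not overlap a peak of the input list. Of 1198 GR peaks deposited for R5020, 1185 were used, 12 were left out at input peaks and 1 lay on another chromosome. Of 28563 PR peaks 28262 were used, 291 were left out at input peaks and 10 lay on other chromosomes. Together these 29447 peaks were part of 94404 peaks deposited in 8 lists. Positions are in the hg19 build. On chromosome 16, the stretch from 34000000 to 36000000 held 318 GR peaks out of 1185 and 262 PR peaks out of 28262, and values are given with it and without it. Without it 867 GR peaks and 28000 PR peaks remained. Each peak has a deposited score, read as MACS's transform of its p for that peak (-10 times the log10). Scores start at 100 and pile up near 3100, where 16 GR peaks and 601 PR peaks had exactly that value, so peaks of 3100 or more were treated as 1 class and not ranked among themselves.

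GR was called at few PR sites after R5020. A GR peak overlapped 587 of the 28262 PR peaks (2.08%, 1.91 to 2.25), and without the chromosome 16 stretch 431 of 28000 (1.54%, 1.398 to 1.69). In the other direction 533 of the 1185 GR peaks overlapped a PR peak (45.0%, 42.1 to 47.9), and 383 of 867 did without the stretch (44.2%, 40.8 to 47.6). Overlap meant at least 1 bp. As background for what follows, 48.2% of all PR peaks lay at a GR peak after Dex, 82.7% at a PR peak of MTVL cells and 1.68% at a GR or PR peak of untreated A1-2 cells. Without the stretch these shares were 47.9%, 83.5% and 1.33%.

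PR sites of the highest score carried GR most often. Without a split by MTVL peaks, the rest of the PR list was nearly flat. By decile of the PR score, from lowest to highest, the share with GR was 1.13%, 1.27%, 1.84%, 1.52%, 2.05%, 1.52%, 2.05%, 1.73%, 1.49% and 6.16%. Without the chromosome 16 stretch it was 0.821%, 0.643%, 1.18%, 0.964%, 1.18%, 1.04%, 1.43%, 1.14%, 1.11% and 5.89%. Over deciles 1 to 9 together GR was then at 266 of 25200 PR peaks (1.06%, 0.933 to 1.19), and among these deciles only the intervals of decile 2 (0.381 to 1.01) and decile 7 (1.02 to 1.94) did not overlap. Decile 10, which began at a PR score of 1320, stood above them, and within it the peaks of 3100 or more stood highest. Split by MTVL peaks, as given below, the share was higher in decile 9 than in decile 1 in each group.

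**Figure D1:**
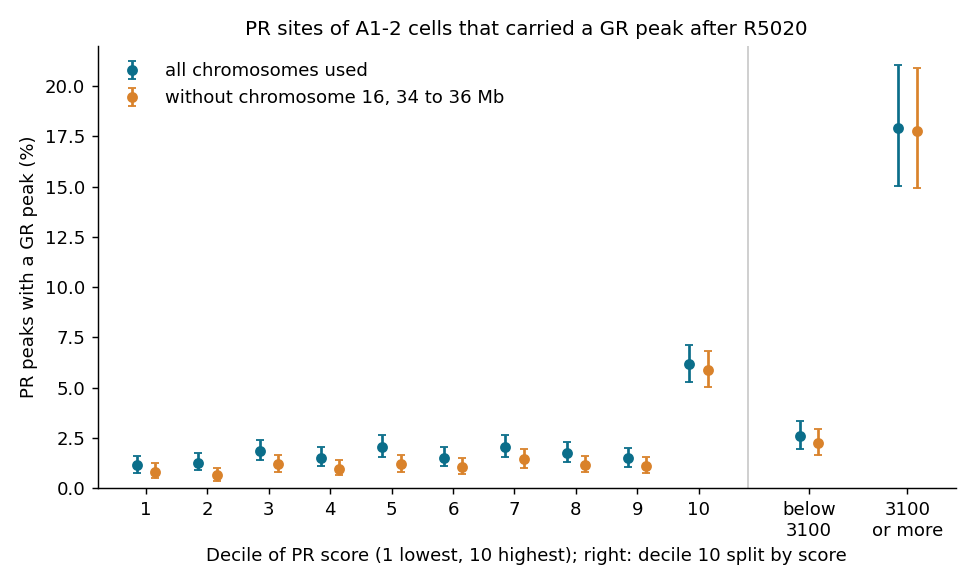
Share of PR peaks of A1-2 cells after R5020 that overlapped a GR peak after R5020 (vertical axis, percent), by decile of PR score (horizontal axis), with decile 10 split on the right into peaks below 3100 and peaks of 3100 or more. Points are shares of the peaks in 1 library and bars are exact 95% intervals over peaks; the class of 3100 or more stands at 17.9% with and 17.8% without chromosome 16 from 34 to 36 Mb, above every decile.

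Of 658 PR peaks of 3100 or more outside the stretch, 117 carried a GR peak (17.8%, 14.9 to 20.9). Of the 2142 other PR peaks of decile 10, 48 did (2.24%, 1.66 to 2.96). Going down the PR score, the share was 4.403% of 159 peaks from 2800 to 3100, 4.07% of 221 from 2500, 3.55% of 282 from 2200, 1.61% of 372 from 1900, 1.21% of 497 from 1600 and 1.55% of 646 from 1300. PR peaks of 3100 or more were 2.35% of the PR list and 27.1% (23.001 to 31.6) of the PR peaks with GR. Among them, those of exactly 3100 carried GR in 113 of 600 cases (18.8%, 15.8 to 22.2) and those above 3100 in 4 of 58 cases (6.90%, 1.91 to 16.7), with intervals that overlapped. Within the class, GR was called at 22.4% (16.3 to 29.6) of the 165 widest PR peaks and at 14.5% (9.55 to 20.9) of the 165 narrowest, with intervals that overlapped.

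The GR peaks at these strongest PR sites were themselves weak. At the 117 sites the lowest GR score was 100.1, the median 159 (141 to 177) and the highest 775. Only 38 of the 117 had a GR score of 200 or more, 4 had 500 or more and 0 had 1000 or more. With GR peaks below 200 left out, GR remained at 5.78% (4.12 to 7.84) of the PR peaks of 3100 or more, at 0.420% (0.192 to 0.796) of the other PR peaks of decile 10 and at 0.798% (0.692 to 0.915) of deciles 1 to 9. The stricter setting thus kept the strongest class above the rest and removed the excess in the remainder of decile 10. Many of the GR peaks at strong PR sites thus stood close to the calling threshold of 100, and the part of depth in their number was not tested.

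At the strongest PR sites the GR peak was centred on the PR peak. Over the 117 overlapping pairs the midpoints were a median of 75.5 bp apart (56.5 to 93.5), and 80.3% of them had midpoints within 200 bp. Pairs with a PR peak of deciles 1 to 9 had a median distance of 497 bp (402.5 to 611.5), and 27.5% of those 291 pairs had midpoints within 200 bp. For the 74 of them whose PR peak MTVL cells also had, these values were 258.5 bp (185.5 to 379.5) and 43.2%. The median GR peak width was 814 bp over the 117 pairs, 938.5 bp over these 74 and 1461 bp over all 291. The part of GR peak width in the distances was not tested. The GR peak was the wider of the pair in 12.8% of the pairs at PR peaks of 3100 or more and in 72.2% of the pairs at deciles 1 to 9. Of the 658 PR peaks of 3100 or more, 117 overlapped a GR peak (17.8%). In the same class, 3 had the nearest GR peak at under 1 kb (0.456%) and 6 at 1 to 5 kb (0.912%). A further 9 had it at 5 to 10 kb (1.37%) and 10 at 10 to 20 kb (1.52%). Of the 25200 PR peaks of deciles 1 to 9, 266 overlapped a GR peak (1.06%). The nearest GR peak was at under 1 kb for 82 (0.325%) and at 1 to 5 kb for 177 (0.702%). It was at 5 to 10 kb for 130 (0.516%) and at 10 to 20 kb for 238 (0.944%). Near misses were thus not rarer per peak at the strongest sites. Overlap stood out more from the surroundings there than in deciles 1 to 9.

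The sites named next were taken by deposited score within the class of 3100 or more, where that order does not rank sites by strength. A shared site lay on chromosome 11 from 85800630 to 85801310, with a GR score of 280, a PR score of 3214 and a GR Dex score of 1322. Another lay on chromosome 22 from 29469760 to 29470530, with a GR score of 222, a PR score of 3184 and a GR Dex score of 539. On chromosome 7 from 16919949 to 16920821 the GR score was 106, the PR score 3162 and the GR Dex score 1062. On chromosome X from 16680200 to 16681122 the GR score was 127, the PR score 3140 and the GR Dex score 264. These 4 sites were also PR peaks of MTVL cells and were not called in untreated A1-2 cells. The shared site of highest GR score in the class differed. It lay on chromosome 2 from 99524358 to 99526813, with a GR score of 775, a PR score of 3100 and a GR Dex score of 1698. That site was called for both receptors in untreated A1-2 cells, and its MTVL PR score was 643. Other PR sites of the same class lacked a GR peak after R5020. Among them were chromosome 12, 31973653 to 31974357 (PR score 3226, GR Dex score 1237), chromosome 2, 105097733 to 105098465 (PR score 3216, GR Dex score 617), and chromosome 3, 187753850 to 187755376 (PR score 3213, GR Dex score 1531).

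What parted the strongest PR sites with GR from those without it was examined with lists that the choice of sites had not used. All 117 sites with GR were also PR peaks of MTVL cells, as were 538 of the 541 without GR. A GR Dex peak was present at 116 of the 117 and at all 541 of the others. Presence in these lists thus hardly varied, but the strength of GR after Dex did. The median GR Dex score was 1912 (1577 to 2520) at the sites with GR and 1224 (1139 to 1327) at the sites without GR. Among PR peaks of 3100 or more, GR after R5020 was called at 8 of 65 with a GR Dex score of 200 to 500, at 21 of 145 with 500 to 1000 (14.5%), at 29 of 258 with 1000 to 2000 (11.2%, 7.66 to 15.7), at 26 of 113 with 2000 to 3100 (23.01%, 15.6 to 31.9) and at 31 of 66 with 3100 or more (47.0%, 34.6 to 59.7). GR under R5020 was thus called most often where the GR Dex score was highest. PR scores do not rank sites within this class, so the part of PR strength in that order was not tested. MTVL PR scores could not settle it, since most were themselves 3100 or more and they were not set against GR Dex scores. Of the PR peaks of this class, 112 of 569 (19.7%, 16.5 to 23.2) with an MTVL PR score of 3100 or more carried GR, and 3 of 60 with an MTVL PR score of 2000 to 3100 did.

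**Figure D2:**
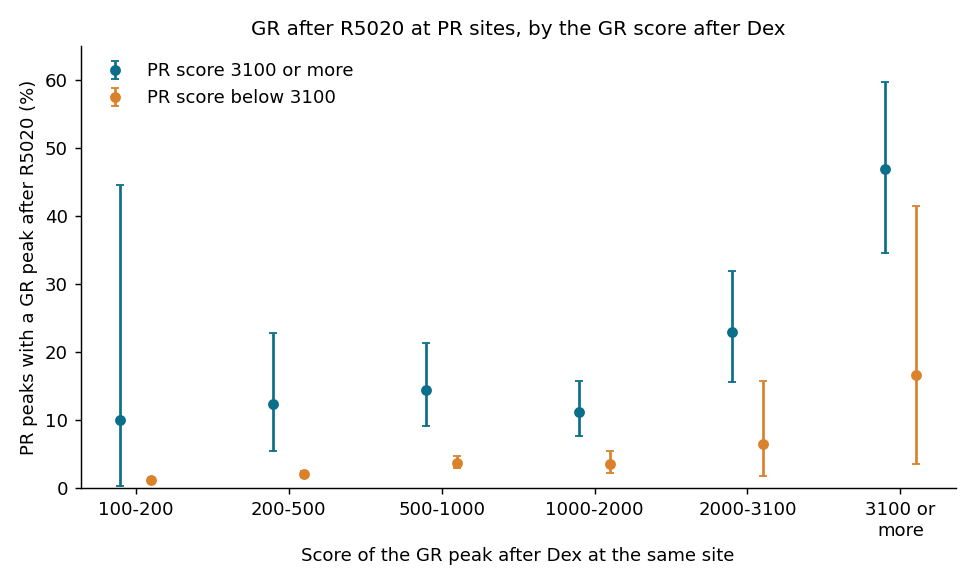
Share of PR peaks of A1-2 cells that overlapped a GR peak after R5020 (vertical axis, percent), by the score of the GR peak after Dex at the same site (horizontal axis), for PR peaks of 3100 or more and for PR peaks below 3100, without chromosome 16 from 34 to 36 Mb. Points are shares within 1 library each and bars are exact 95% intervals over peaks; the share reaches 47.0% where both the PR score and the GR Dex score were 3100 or more.

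Below a PR score of 3100 the share was also higher at higher GR Dex scores, on a lower level. GR after R5020 was called at 0.411% (0.314 to 0.529) of 14588 PR peaks with no GR Dex peak, at 1.15% of 5586 with a GR Dex score of 100 to 200, at 2.07% of 4879 with 200 to 500, at 3.76% (2.89 to 4.79) of 1650 with 500 to 1000 and at 3.58% (2.20 to 5.47) of 559 with 1000 to 2000. At a GR Dex score of 2000 to 3100 it was called at 4 of 62, and at 3100 or more at 3 of 18. Over all PR peaks outside the stretch, 85.8% (82.2 to 89.0) of those with GR after R5020 lay at a GR Dex peak, and 47.3% (46.7 to 47.9) of those without it did. The GR lists of R5020 and Dex came from separate libraries of the same cells with the same antibody mix.

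The PR list of MTVL cells divided the PR sites of A1-2 cells into a group that seldom carried GR and a group that carried it more often. PR peaks of A1-2 cells that MTVL cells also had carried GR seldom unless they were strong. By decile of the A1-2 PR score, their share with GR was 0.0623%, 0.167%, 0.1996%, 0.182%, 0.379%, 0.1198%, 0.494%, 0.443%, 0.761% and 5.78%, from lowest to highest. PR peaks that MTVL cells did not have carried GR more often in every decile, at 1.84%, 1.4985%, 3.64%, 3.83%, 5.66%, 8.81%, 16.1%, 22.5%, 24.4% and 30.8%. Such peaks thinned out with score, so the top values rest on few peaks. They numbered 1196 in decile 1, 41 in decile 9 and 13 in decile 10. From decile 1 to decile 9 the share rose in each group, though not at every step. For peaks that MTVL cells had, the intervals of these deciles were 0.00158 to 0.347 and 0.472 to 1.16. For peaks that they lacked, the intervals were 1.16 to 2.77 and 12.4 to 40.3. The nearly flat share over deciles 1 to 9 given above thus joins groups whose mix changed with score. Over deciles 1 to 9, GR was called at 70 of 20589 PR peaks that MTVL cells had (0.340%, 0.265 to 0.429) and at 196 of 4611 that they did not have (4.25%, 3.69 to 4.87). These shares were 0.345% and 7.03% with the chromosome 16 stretch. With GR peaks below 200 left out, and without the stretch, they were 0.189% (0.135 to 0.259) and 3.51% (3.001 to 4.09). Some PR peaks that MTVL cells lacked shared 1 GR peak, up to 14 of them, and the intervals do not allow for that.

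**Figure D3:**
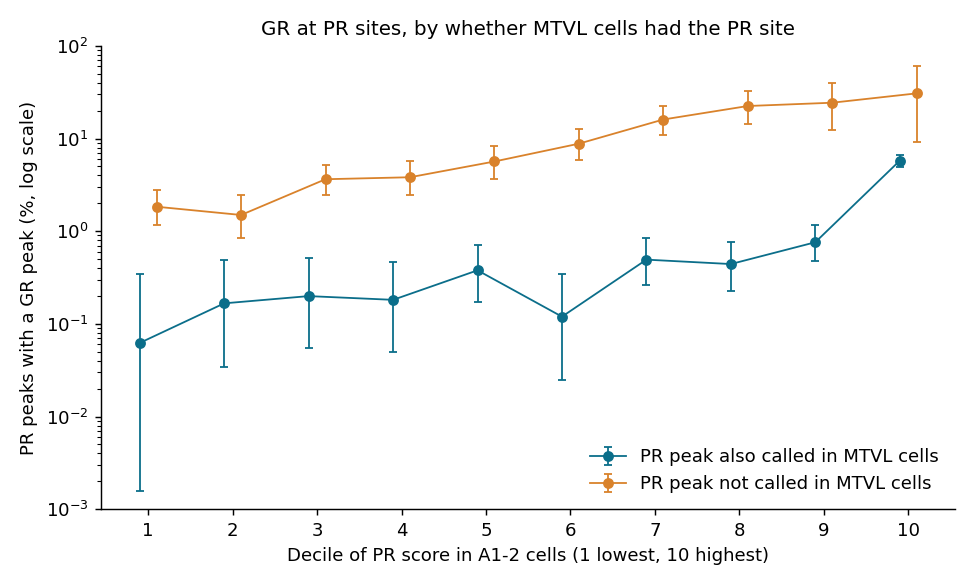
Share of PR peaks of A1-2 cells after R5020 that overlapped a GR peak after R5020 (vertical axis, percent on a log scale), by decile of the A1-2 PR score (horizontal axis), for PR peaks that MTVL cells also had and for PR peaks that they did not have, without chromosome 16 from 34 to 36 Mb. Points are shares within 1 library and bars are exact 95% intervals over peaks; peaks that MTVL cells had go up to 5.78% in decile 10, and peaks that they did not have lie above them in every decile.

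Many shared sites of lower PR rank lay at peaks called before hormone, and those that MTVL cells lacked often stood close together. Of the 266 PR peaks with GR in deciles 1 to 9, 124 (46.6%, 40.5 to 52.8) lay at a GR or PR peak of untreated A1-2 cells, compared with 221 of 24934 PR peaks without GR (0.886%, 0.774 to 1.01). In the class of 3100 or more the numbers were 2 of 117 with GR and 11 of 541 without GR, against 1.33% of all PR peaks. The 196 PR peaks with GR of deciles 1 to 9 that MTVL cells lacked fell into 84 stretches with gaps of at most 20 kb, and 9 stretches of 5 or more peaks held 67 of them. The longest, on chromosome 3 from 60473199 to 60492174, held 14. The other 70, which MTVL cells had, fell into 64 stretches, with 59 of them alone and 0 stretches of 5 or more peaks. Of the 117 strongest sites 111 stood alone. The part of untreated binding and of close spacing in the GR signal of the lower ranks was not tested. With PR peaks at untreated peaks left out, GR was at 0.571% (0.481 to 0.673) of deciles 1 to 9, at 5.70% (4.86 to 6.63) of decile 10 and at 17.8% (15.0 to 21.0) of the PR peaks of 3100 or more. None of the 431 PR peaks with GR had an input peak within 10 kb, compared with 302 of 27569 PR peaks without GR (1.095%). Peaks that overlapped an input peak had already been left out of both lists, so these numbers do not test input signal.

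In the chromosome 16 stretch nearly all PR peaks, with GR or without it, were of the kind that MTVL cells lacked. Within it 156 of 262 PR peaks carried GR (59.5%, 53.3 to 65.5) and 150 of 318 GR peaks carried PR. Only 3 of these 262 PR peaks were also MTVL peaks, 1 scored 3100 or more, and their median PR score was 214 (195 to 246).

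Across shared sites, low GR scores went with high PR scores. Over the 459 overlapping pairs outside the stretch, Spearman's rho between GR score and PR score was -0.50, as a description of peaks that share a library and a calling threshold. Pairs repeat peaks, since 46 GR peaks overlapped more than 1 PR peak, up to 14, and 25 PR peaks overlapped more than 1 GR peak. Within the groups rho was nearer to 0, at -0.23 over the 235 pairs whose PR peak MTVL cells also had and -0.17 over the other 224. By PR rank it was -0.24 over the 291 pairs of deciles 1 to 9 and 0.10 over the 168 pairs of decile 10. Over the 117 pairs with a PR score of 3100 or more, where most PR scores were equal, it was 0.02. In the pairs that MTVL cells had, the median GR score was 160 (147 to 178) and the median PR score 3039 (2368 to 3100). In the pairs that they did not have, the median GR score was 540 (426 to 718) and the median PR score 242 (212 to 270). With each GR peak counted 1 time, the median GR score was 160 (149 to 177) for the 231 GR peaks at PR sites that MTVL cells had and 362 (278 to 466) for the 152 at PR sites that they lacked. The GR score exceeded the PR score in 11.9% of the pairs that MTVL cells had and in 68.3% of the others. Depth and control library are unknown, so a GR score above a PR score does not mean stronger GR binding.

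**Figure D4:**
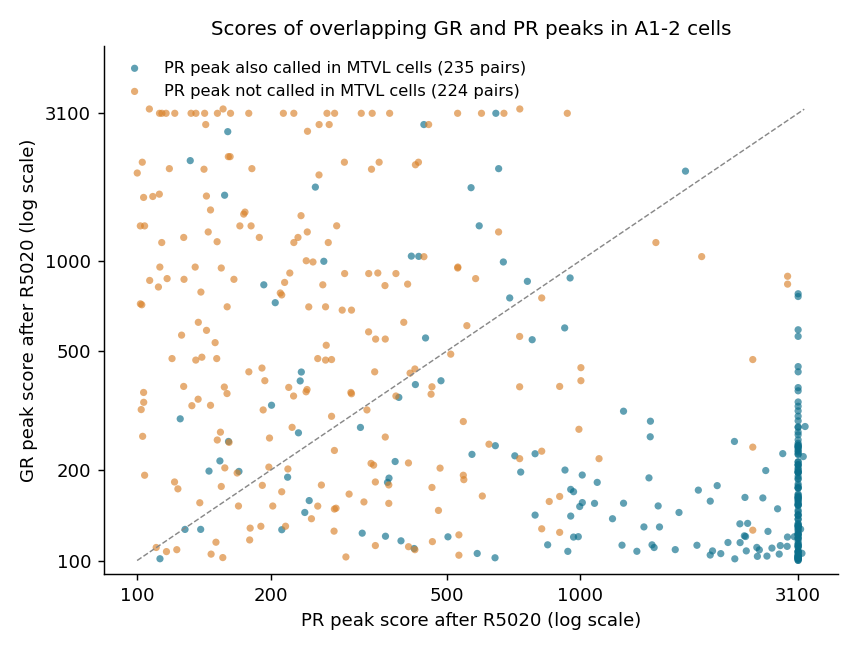
GR peak score (vertical axis, log scale) against PR peak score (horizontal axis, log scale) for the 459 overlapping pairs of A1-2 cells after R5020 outside chromosome 16 from 34 to 36 Mb; each point is 1 pair, coloured by whether MTVL cells had the PR peak, and the dashed line marks equal scores. Pairs that MTVL cells had gather at PR scores near 3100 with GR scores mostly below 200, and the others spread to the upper left.

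A few sites ranked high in both lists. By the smaller of the rank percentages, the first lay on chromosome 6 from 139696291 to 139697328, with a GR score of 1988 and a PR score of 1727. It was also an MTVL PR peak (score 2417), was not called in untreated cells and had a GR Dex score of 141. The sites that followed, chromosome 2, 99551261 to 99554048 (GR score 1149, PR score 1481), and chromosome 5, 142661062 to 142661678 (GR score 1032, PR score 1878), were called for both receptors in untreated A1-2 cells and were not PR peaks of MTVL cells.

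Seen from the GR list, most GR peaks after R5020 did not lie at PR sites, and the share that did was not higher among strong GR peaks. Of the 867 GR peaks outside the stretch, 231 (26.6%, 23.7 to 29.7) lay at a PR peak that MTVL cells also had, 152 (17.5%, 15.1 to 20.2) at a PR peak that they lacked and 484 (55.8%, 52.4 to 59.2) at no PR peak. By decile of the GR score, from lowest to highest, the share at any PR peak was 49.4%, 42.5%, 37.9%, 53.5%, 60.9%, 54.02%, 36.05%, 29.9%, 40.2% and 37.2%, with about 87 peaks in each. The share at PR peaks that MTVL cells had was 28.7% to 42.5% in GR deciles 1 to 6 and 6.90% to 12.8% in deciles 7 to 10. The share at PR peaks that MTVL cells lacked was 6.90% in decile 1 and 25.6% in decile 10.

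**Figure D5:**
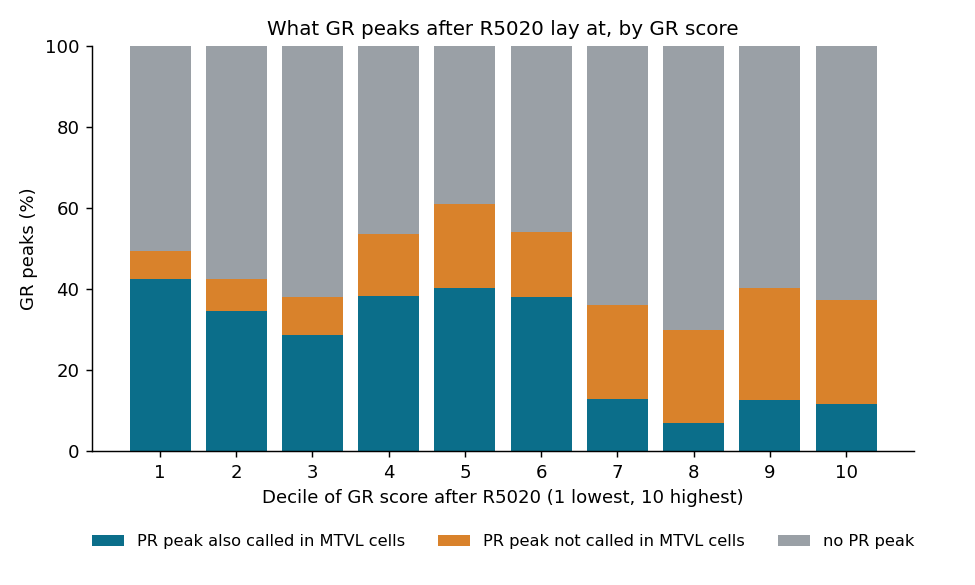
GR peaks of A1-2 cells after R5020 without chromosome 16 from 34 to 36 Mb, by decile of GR score (horizontal axis); stacked bars give the percent of peaks (vertical axis) at a PR peak that MTVL cells also had, at a PR peak that they did not have, and at no PR peak. The bottom part is 28.7% to 42.5% in deciles 1 to 6 and at most 12.8% in deciles 7 to 10.

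The 3 classes of GR peak differed in other readouts. A GR Dex peak was present at 86.6% (81.5 to 90.7) of the GR peaks at PR sites that MTVL cells had, at 88.2% (81.9 to 92.8) of those at PR sites that they lacked and at 6.20% (4.22 to 8.73) of those without PR. A GR or PR peak of untreated A1-2 cells was present at 8.66%, 57.2% and 3.10% in the same order. The median GR score of those without PR was 262 (217 to 323). In the same order, median widths were 820 bp, 1378.5 bp and 992.5 bp. GR peaks scoring 1000 or more made up 5.19%, 18.4% and 15.1% of the classes. Chromosome 3 beyond 150 Mb held 104 of the 484 GR peaks without PR (21.5%), 9 of the 231 and 1 of the 152. Of the GR peaks without PR, 21 lay at a PR peak of MTVL cells. With PR, high-scoring GR peaks included chromosome 7, 10671419 to 10682765 (GR score 3205, 11347 bp wide). That site was called for both receptors in untreated A1-2 cells and was not an MTVL PR peak. Another was chromosome 12, 14410345 to 14411311 (GR score 3100, PR score 645, also an MTVL PR peak and not called in untreated cells). Without PR, high-scoring GR peaks included chromosome 4, 185654845 to 185655997, and chromosome 15, 64752095 to 64753256, each with a score of 3100 and no GR Dex peak.

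The GR lists of both ligands were set beside the PR list at equal length. Of the 867 GR peaks after R5020, 44.2% lay at a PR peak, compared with 99.1% (98.2 to 99.6) of the 867 GR Dex peaks of highest score, whose lowest score was 1118. GR after R5020 was called at 0.821% of PR decile 1, 1.18% of decile 5, 1.11% of decile 9 and 5.89% of decile 10, against 1.54% of all PR peaks. For the 867 GR Dex peaks the shares were 0.107%, 0.286%, 3.25% and 26.2%, against 3.12% of all PR peaks (4.25% with the chromosome 16 stretch, where 1185 GR Dex peaks were taken). These 867 GR Dex peaks thus lay more at the top of the PR list than the GR peaks after R5020 did. They were the strongest of 18144 GR Dex peaks, whereas the R5020 list was taken whole. The part of that cut in the difference was not tested. At PR peaks of 3100 or more, GR after R5020 was called at 17.8% and 1 of the 867 strongest GR Dex peaks at 58.4% (54.5 to 62.2). Of these 867 GR Dex peaks, 101 (11.6%, 9.59 to 14.0) overlapped a GR peak after R5020.

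The strongest shared sites were spread over the genome. Of the 117 PR peaks of 3100 or more with GR, 12 lay on chromosome 11, 11 on chromosome 20 and 10 on chromosome 7, out of 46, 31 and 35 PR peaks of that class there. Chromosome 1 held 5 of 52, chromosome 15 held 1 of 23 and chromosome 13 held 0 of 16. Of the 196 PR peaks with GR of deciles 1 to 9 that MTVL cells lacked, 31 lay on chromosome 3. That chromosome had 1837 PR peaks of these deciles. Chromosome 2 held 24, out of 1683, and chromosome 7 held 24, out of 1219. Chromosomes 10, 17, 21 and X held 0, out of 1321, 732, 217 and 618. On chromosome 3, 14 of the 31 stood in the stretch from 60473199 to 60492174, which lay within 1 GR peak. Copy number was not analysed here.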

How the data were processed

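Per the submitters' processing notes, reads were handled with Bowtie 1.1.1, peaks with MACS 1.4.2 and lists with bedtools, on hg19. Settings, the control library and read depth are not given in the sources used. Each deposited file lists the peaks of 1 library with the authors' score, read as -10 times the log10 of p because the lowest deposited score, 100, equals the threshold of 1e-10 in the deposited names. Scores were used to rank, describe and filter peaks within a list. For overlapping pairs, GR and PR scores of separate libraries were also set side by side.

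Samples were grouped by title. Peaks counted as shared from 1 bp of overlap. Deciles were made within each list by score. Shares have exact (Clopper-Pearson) intervals and medians have order-statistic intervals. No test between conditions was made. The peaks named came from the first 5 by score in each class and the 5 of highest joint rank. The members, lists and settings were chosen with earlier results of these data known. The class of 3100 or more, the split by MTVL peaks and the minimum of 200 for GR alone were added after seeing the data. Gene names were to come only from an hg19 annotation, so 0 genes were placed, and receptor proteins were not compared. The overlap step was tested on simulated data and against bedtools 2.31.1. Python 3.11.15, numpy 2.4.6, pandas 2.3.3, scipy 1.17.1 and matplotlib 3.10.9 were used.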

Additional observations from a re-analysis of the deposited data

How the results depend on the processing

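No paired analysis was possible because each condition had 1 library. All values here include the chromosome 16 stretch unless it is named. There were 11 results and 102 alternatives, of which 47 fell inside the 95% interval of the value as reported and 55 outside it. The share with GR was higher in the highest than in the lowest PR decile in each of 9 settings. Among these was the PR list cut to the length of the GR list, which cannot count for rank, as given below. The intervals of those deciles overlapped at a score of 200 or more in every list (2.77%, 2.04 to 3.68, and 1.63%, 1.07 to 2.36) and with the PR list cut to the length of the GR list (9.32%, 4.75 to 16.1, and 5.88%, 2.40 to 11.7). In that cut list 659 of 1185 PR peaks scored 3100 or more, so its highest deciles split tied scores and it says nothing about rank. Its highest decile lay below the 12.1% of the whole cut list. Without the chromosome 16 stretch, GR was at 2.24% of decile 10 below 3100 and at 1.06% of deciles 1 to 9, and this order turned with a GR score of 200 or more, to 0.420% and 0.798%. Depth was unknown and limits every count of sites called for 1 receptor alone.

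As reported, 2.08% of PR peaks had GR, 6.16% in the highest and 1.13% in the lowest PR decile, and 45.0% of GR peaks had PR, 43.2% in the highest GR decile. PR peaks with GR had a median PR score of 382, 83.5% of them lay at a GR Dex peak and 39.9% at an MTVL PR peak. GR was at 17.9% of PR peaks of 3100 or more, and in deciles 1 to 9 at 0.345% of PR peaks that MTVL cells had and 7.03% of those they lacked.

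Without the chromosome 16 stretch, GR was at 1.54% of PR peaks, the median PR score was 532.1, the MTVL share 53.6% and the share at PR peaks that MTVL cells lacked 4.25%. With a score of 200 or more in every list, the share of PR peaks with GR was 1.41%, the share of GR peaks with PR 31.1%, that of the highest GR decile 29.9%, the median PR score 451, the GR Dex share 79.9%, the MTVL share 29.5%, the share at PR peaks of 3100 or more 5.87%, and that at lower PR peaks that MTVL cells had 0.213%. With that minimum for GR alone, GR was at 1.32% of PR peaks, 1.98% of the highest decile, 5.92% of those of 3100 or more, and 0.194% and 5.696% of lower PR peaks that MTVL cells had and lacked, with a median PR score of 257 and an MTVL share of 22.8%. With an overlap of 50% of the shorter peak, the shares were 1.88% of PR peaks, 39.9% of GR peaks and 6.06% of lower PR peaks that MTVL cells lacked.

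With midpoints within 200 bp, GR was at 0.863% of PR peaks, 4.60% of the highest and 0.177% of the lowest decile, 14.3% of those of 3100 or more, and 0.131% and 1.41% of lower PR peaks that MTVL cells had and lacked. PR was then at 20.6% of GR peaks and 6.78% of the highest GR decile, the median PR score was 1751, the GR Dex share 75.8% and the MTVL share 60.7%. Without peaks at untreated peaks of the same receptor, GR was at 1.33% of PR peaks, 0.574% of the lowest decile and 3.33% of lower PR peaks that MTVL cells lacked, PR was at 34.2% of GR peaks and 27.6% of the highest GR decile, the median PR score was 575, the GR Dex share 78.6% and the MTVL share 58.1%.

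With the PR list cut by score to the length of the GR list, GR was at 12.1% (10.2 to 14.2) of PR peaks of deciles 1 to 9 that MTVL cells had and 57.1% (18.4 to 90.1) of the few that they lacked, and PR was at 12.5% of GR peaks and 0% of the highest GR decile. The median PR score was then 3100, the GR Dex share 99.3% and the MTVL share 97.2%. Quintiles gave 3.82% of the highest PR class, and leaving out chromosome 3 beyond 150 Mb gave 48.8% of GR peaks with PR. The cause of these shifts was not tested.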
